A study of Mus musculus with 6 samples.

Results

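The miRNA loci with reads are the rows of the deposited expression table that carry the biotype miRNA and reach an FPKM (fragments per kilobase, here scaled by size factors) of at least 0.5 in at least 3 of the 6 libraries. The loci were thus selected on their expression level over both groups, and the rule kept 225 of 2207 miRNA loci among 54532 genes. The table comes from poly(A)-selected RNA sequencing of whole islets, the hormone-producing cell clusters of the pancreas, of mice aged 7 weeks. The control group held 3 libraries of Ythdc1flox/flox mice, whose Ythdc1 gene is flanked by loxP sites. The knockout group, called bKO here, held 3 libraries with the genotype label Ythdc1-betaKO, a deletion aimed at the insulin-producing beta cells, and the free-text descriptions of bKO 2 and bKO 3 name other Ythdc genes. The promoter that drives the deletion is not given in the sources used here. YTHDC1 is a nuclear protein that binds N6-methyladenosine in RNA, and the comparison asks how islet RNA differs when beta cells lack it.

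MicroRNAs are cut from long primary transcripts. In the nucleus the enzyme Drosha and its partner DGCR8 release a hairpin, which Dicer then trims in the cytoplasm to a mature RNA that is loaded into an Argonaute protein and pairs with target mRNAs through its seed, bases 2 to 8. Many miRNA hairpins lie in introns of a host gene and are transcribed with it, and others have primary transcripts of their own. In islets, miR-375 and the miR-7 family are known as abundant miRNAs. The libraries were selected for poly(A) RNA and for fragments far longer than a mature miRNA, so the values below count reads over the annotated hairpin and do not measure mature miRNA.

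The sequences of the loci to which the results refer most often are given first, because several of these loci carry related miRNAs. They are the RefSeq sequences on GRCm38.p6, written 5′ to 3′ with the seed in capitals.
let-7k, of Mir7k: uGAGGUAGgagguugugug
let-7a-5p, of Mirlet7a-1: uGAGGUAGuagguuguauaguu
miR-7a-5p, of Mir7-1 and Mir7-2: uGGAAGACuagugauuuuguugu
miR-7b-5p, of Mir7b: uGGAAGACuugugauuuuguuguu
miR-375-5p, of Mir375: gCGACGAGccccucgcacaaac
miR-186-5p, of Mir186: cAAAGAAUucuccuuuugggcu
miR-384-5p, of Mir384: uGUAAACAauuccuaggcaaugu
miR-30c-5p, of Mir30c-1: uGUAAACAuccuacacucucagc
miR-344i, of Mir344i: aAGUCAGGcuccuggcugga

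Despite its name, the locus Mir7k holds let-7k, and its seed GAGGUAG is that of let-7a and not of miR-7. Counted from the 5′ end, let-7k differs from let-7a-5p by U9G, A17G and A19G over the shared length. The seed GGAAGAC is shared by Mir7-1, Mir7-2 and Mir7b, and GUAAACA by Mir384 and Mir30c-1. The table of RefSeq miRNAs matched 144 of the 225 loci and gave 244 mature sequences of 18 to 26 bases for 143 of them, among which 15 seeds were shared by 2 or more loci. The other 81 loci were not matched.

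For the locus with the largest change and for Mir375, the locus of the islet miRNA miR-375, the whole hairpin, over which reads were counted, is shown. The marking is the same. In the Mir375 hairpin the capitals mark the seed of miR-375-5p only. The RefSeq miRNAs used here held no sequence for the other arm of this hairpin, so its seed is not marked. Which arm makes up the miR-375 of islets was not tested.
Mir7k hairpin: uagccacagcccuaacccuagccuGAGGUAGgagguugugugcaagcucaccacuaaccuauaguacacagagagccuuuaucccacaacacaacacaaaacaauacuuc
Mir375 hairpin: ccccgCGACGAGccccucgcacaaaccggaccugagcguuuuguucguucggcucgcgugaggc

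For the locus with the most reads, the predicted gene Gm23935, the annotated transcript in GENCODE vM21 is shown because other loci repeat it.
Gm23935: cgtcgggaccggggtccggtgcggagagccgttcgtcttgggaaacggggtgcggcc
Gm24270: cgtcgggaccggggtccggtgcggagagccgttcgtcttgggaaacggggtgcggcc
Both run over 57 bases and are 100% identical, so reads within these bases cannot be told apart by sequence. Whether reads reach into differing sequence beside them was not tested. Gm24245 is also 100% identical over 57 bases but is not among the 225 loci.

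Each library held between 16863329 and 18240339 recovered reads. Ythdc1 was lower in each bKO library (3.79 to 3.87 FPKM) than in each control library (5.76 to 6.46 FPKM), in whole islets and over all exons. The beta-cell markers summed to 200691 to 222377 FPKM in control and to 130557 to 139637 FPKM in bKO. Ins1 and Ins2 made up most of this sum. Ins1, Ins2, Iapp, Mafa, Slc2a2 and Nkx6-1 were each lower in every bKO library. Pdx1, of the same list, overlapped between the groups (82.6 to 89.5 FPKM in control and 87.5 to 94.8 FPKM in bKO). Summed markers of macrophages (92.7 to 104.8 against 57.1 to 69.8 FPKM) and lymphocytes (4.02 to 6.81 against 0.72 to 1.61 FPKM, with the T-cell gene Cd3e and the B-cell gene Ms4a1 at or near 0) were lower in bKO, and the PP-cell hormone gene Ppy (3808 to 5226 against 8292 to 10843 FPKM), delta-cell, endothelial and mesenchymal sums were higher. Alpha-cell, acinar, duct and Schwann-cell sums overlapped between the groups. The part of these shifts in the miRNA results was not tested, and in whole islets fewer cells of a type and less RNA per cell cannot be told apart.

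Most of the 225 loci held few reads. Their reads summed over the 6 libraries ran from 3 to 175468 with a median of 13. 148 loci had at least 10 reads, 48 had at least 30 and 12 had at least 100. The loci are 50 to 139 bases long (median 83), and at the median length 1 read is worth 0.627 to 0.748 FPKM, so 1 read in each of 3 libraries can satisfy the rule. Of the other miRNA loci, 1659 had no read and 323 had reads but missed the rule. Just inside it, the highest FPKM that 3 libraries reached was 0.509 at Gm44450, 0.521 at Mir6415 and 0.526 at Gm47303. Just outside it, the same value was 0.498 at Gm27833 and 0.497 at Gm25640 and Gm23365. 71 loci reached 0.5 FPKM in all 6 libraries, 11 in the 3 bKO libraries and no control library, and 3 in the 3 control libraries and no bKO library. These last 14 passed the rule through 1 group and so had to differ between the groups. They are Gm23654, Gm25070, Mir340, Mir666, Gm24053, Gm22926, Mir496a, Gm25036, Mir153, Gm23726 and Mir6929 through bKO, and Mir3569, Mir3473e and Gm22774 through control. Their calls and p-values below are descriptions and support nothing.

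The loci lay on 20 chromosomes, with 29 on chromosome 12, 26 on chromosome 11 and 18 on chromosome 7, and 59 are predicted genes named Gm. Loci that overlap an exon of another gene were seldom among them. Of 1618 miRNA loci that overlap no exon in GENCODE vM21, 205 were among the 225 (12.7%), against 15 of 425 that overlap an exon on their own strand (3.53%) and 5 of 164 that overlap one only on the other strand (3.05%). The shares without a single read were 69.5%, 91.1% and 90.2%. How the authors' counting treated reads in overlapping genes is not given in the sources used here. 149 of the 225 loci lay inside a gene on the same strand, 34 inside a gene on the opposite strand only, and 42 in neither. Of the 149, 123 had a protein-coding host. 11 of the 149 lay in an exon of the host and 138 in an intron, with 53 of them within 300 bases of a host exon and a median distance of 525 bases.

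The comparison of bKO with control called 26 of the 225 loci at an adjusted p under 0.05 by limma on log2(FPKM + 1), 22 higher and 4 lower. That is 11.6% of them, beside 20.3% of the 15717 genes tested (8.96% higher and 11.4% lower). 20 of the 26 had under 30 reads in all, and their median was 11 reads. 12 of the 26 are among the 14 loci that passed the rule through 1 group. With them, 18 of the 26 reached the level in fewer than 2 libraries of 1 group. The added loci are Gm24325, Mir23a, Mir26a-2, Mir325 and Gm22029 (1 control and 3 bKO libraries) and Mir7041 (3 control libraries and 1 bKO library). Their calls too are descriptions only. Voom, which weights each recovered read count by its precision, called 12 loci, 9 higher and 3 lower, or 5.33% beside 27.7% of all genes tested (12.5% higher and 15.2% lower). Both fits called 10 loci, limma alone 16 and voom alone 2. At an unadjusted p under 0.05 the counts were 49 and 25. Scaled by library totals, limma called 31 of the loci higher and 4 lower, and 3684 of all genes higher and 737 lower where the values as deposited give 1408 and 1784. Reads per size factor did not overlap between the groups at 36 loci, 30 higher and 6 lower in bKO, beside 40.1% of all genes tested (18.5% higher and 21.6% lower). The median log2 change was 0.31 over the 225 loci and -0.01 over all genes tested by limma, and 0.47 and -0.02 by voom. Since loci that passed the rule through 1 group are among them, these counts and medians are descriptions only. Because a locus of few reads sits on a scale shared with long, deeply covered genes, a voom value is given beside each limma call of a miRNA locus described singly below.

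**Figure D1:**
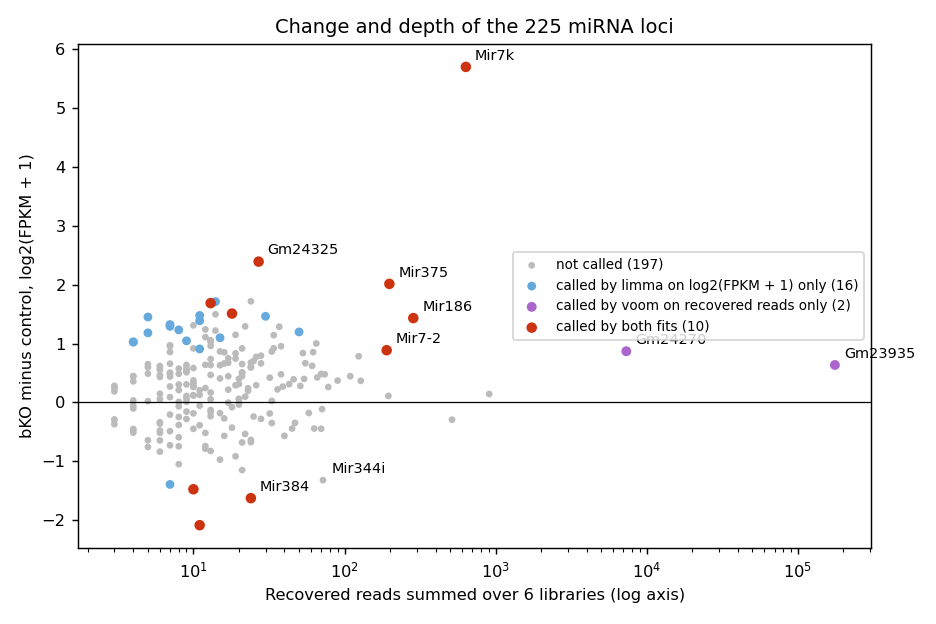
Each point is 1 of the 225 miRNA loci, with its reads summed over the 6 libraries on a log x axis and its bKO minus control difference in log2(FPKM + 1) on the y axis, coloured by the fits that called it. Red points are the 10 loci called by limma and voom, and the 16 blue points, called by limma alone, lie at 50 reads or fewer.

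Of all 225 loci, Mir7k changed most. It lies on chromosome 5 (147283189 to 147283298, minus strand, GRCm38), within no other gene of the table. Its reads were 4, 1 and 1 in control 1, 2 and 3 and 226, 191 and 212 in bKO 1, 2 and 3, and its FPKM were 2.26, 0.528 and 0.561 against 107, 95.8 and 104. Every bKO library lay far above every control library. Reads per size factor were 93.0 times as high in bKO (95% counting interval 42.5 to 254). The locus rose by 5.70 on the log2(FPKM + 1) scale (adjusted p = 0.000145 by limma, SE 0.28), with a voom adjusted p of 3e-08 and a range of 3e-08 to 0.00243 over 13 settings, in each of which it was called.

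The nearest genes to Mir7k did not move as one. Gm27033, a long noncoding RNA gene on the opposite strand whose end lies 1925 bases away, had 350, 313 and 305 reads in control and 870, 781 and 614 in bKO. It rose from 36.0 ± 3.5 to 74.5 ± 12 FPKM (SD, n = 3 per group), by 1.02 on the log2 scale (limma adjusted p = 0.0025). Pdx1, which encodes a transcription factor of beta-cell development and function and lies 7340 bases away on the opposite strand, was at 87.0 ± 3.9 and 91.5 ± 3.7 FPKM (adjusted p = 0.34 by limma). Plut, a noncoding transcript that overlaps Pdx1 and lies on the strand of Mir7k, fell from 20.1 ± 0.59 to 9.28 ± 1.7 FPKM, by 1.05 on the log2 scale (limma adjusted p = 0.0017). Cdx2, an intestinal transcription factor gene 17506 bases away on the same strand, held 0, 2 and 0 reads in control and 10, 7 and 14 in bKO and missed the filter. Read counts at Mir7k thus rose with Gm27033 on one side, while the transcript of its own strand on that side fell.

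Mirlet7a-1 shares its seed with Mir7k and lies on chromosome 13 (48538179 to 48538272, minus strand). It held 2, 1 and 2 reads in control and 10, 6 and 9 in bKO. All bKO libraries lay above all control libraries, at a depth of 30 reads in all. It rose by 1.46 on the log2 scale (adjusted p = 0.0035 by limma, SE 0.19), 4.44-fold in reads per size factor (95% counting interval 1.67 to 14.8), while voom gave an adjusted p of 0.0615, the highest of its 13 settings (lowest 0.0024). The long noncoding RNA gene 6720427I07Rik, on the same strand and 356 bases downstream in the table, had 20, 38 and 13 reads in control and 68, 64 and 89 in bKO and rose by 0.76 (limma adjusted p = 0.0188). In GENCODE vM21 Mirlet7a-1 overlaps an exon of 6720427I07Rik on its own strand. Zfp169, a zinc finger gene 24727 bases away on the same strand, rose from 1.55 ± 0.044 to 2.72 ± 0.24 FPKM (log2 change 0.54, limma adjusted p = 0.0048).

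Among the 3 loci of the miR-7 family, Mir7-2 passed the test. It lies on chromosome 7 (78888277 to 78888373, plus strand), inside no other gene of the table. Its reads were 16, 24 and 20 in control and 53, 35 and 42 in bKO, with no overlap between the groups. It rose from 12.4 ± 2.1 to 23.9 ± 4.3 FPKM, by 0.89 on the log2 scale (adjusted p = 0.0087 by limma, SE 0.15, voom adjusted p = 0.0402) and passed in all 13 settings (adjusted p 0.00497 to 0.0416). Aen, an exonuclease gene that begins 7480 bases downstream on the same strand, rose from 4.72 ± 0.20 to 8.01 ± 0.53 FPKM (log2 change 0.65, limma adjusted p = 0.0011). Isg20, another exonuclease gene 25050 bases downstream, was at 41.5 ± 2.4 and 37.4 ± 1.3 FPKM (limma adjusted p = 0.0958).

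Mir7-1, which encodes the same mature miR-7a-5p as Mir7-2, lies in an intron of Hnrnpk on chromosome 13, 234 bases from an exon. It held 6, 10 and 5 reads in control and 12, 9 and 19 in bKO, and the groups overlapped (log2 change 0.62, limma adjusted p = 0.15). Hnrnpk, which encodes an abundant RNA-binding protein, fell from 59.0 ± 1.8 to 52.8 ± 0.98 FPKM (log2 change -0.16, limma adjusted p = 0.0276). The log2 ratio of Mir7-1 reads to Hnrnpk reads was 0.86 higher in bKO, with overlapping groups. Mir7b, on chromosome 17, held 3, 3 and 1 reads in control and 5, 1 and 6 in bKO (limma adjusted p = 0.64).

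Mir375 lies between Cryba2 and Cfap65 on chromosome 1 (74900658 to 74900721, minus strand). It held 7, 8 and 21 reads in control and 72, 52 and 38 in bKO. The lowest bKO library was above the highest control library, and both groups spread widely. It rose from 11.4 ± 7.6 to 45.2 ± 13 FPKM, by 2.02 on the log2 scale (adjusted p = 0.0155 by limma, SE 0.41), or 3.99-fold in reads per size factor (95% counting interval 2.77 to 5.90). Voom gave an adjusted p of 0.000811, and the range over 13 settings was 0.000811 to 0.0574. The call was lost without control 1, without control 2 and without bKO 1, with adjusted p of 0.0523, 0.0501 and 0.0574, and under the replicate block (0.0514).

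The genes around Mir375 differed among themselves. Cryba2, a crystallin gene expressed in endocrine cells and located 7514 bases downstream of Mir375 on the same strand, was at 30.4 ± 2.0 and 29.9 ± 2.7 FPKM (limma adjusted p = 0.83). Fev, a transcription factor gene of endocrine progenitors and serotonin neurons 15238 bases away, rose from 7.57 ± 1.4 to 10.4 ± 0.59 FPKM (log2 change 0.42, limma adjusted p = 0.0393). Cfap65, a cilia gene that ends 1349 bases upstream of Mir375 on the same strand, held 4, 4 and 11 reads in control and 14, 16 and 27 in bKO, too few for the filter, with no overlap between the groups.

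**Figure D2:**
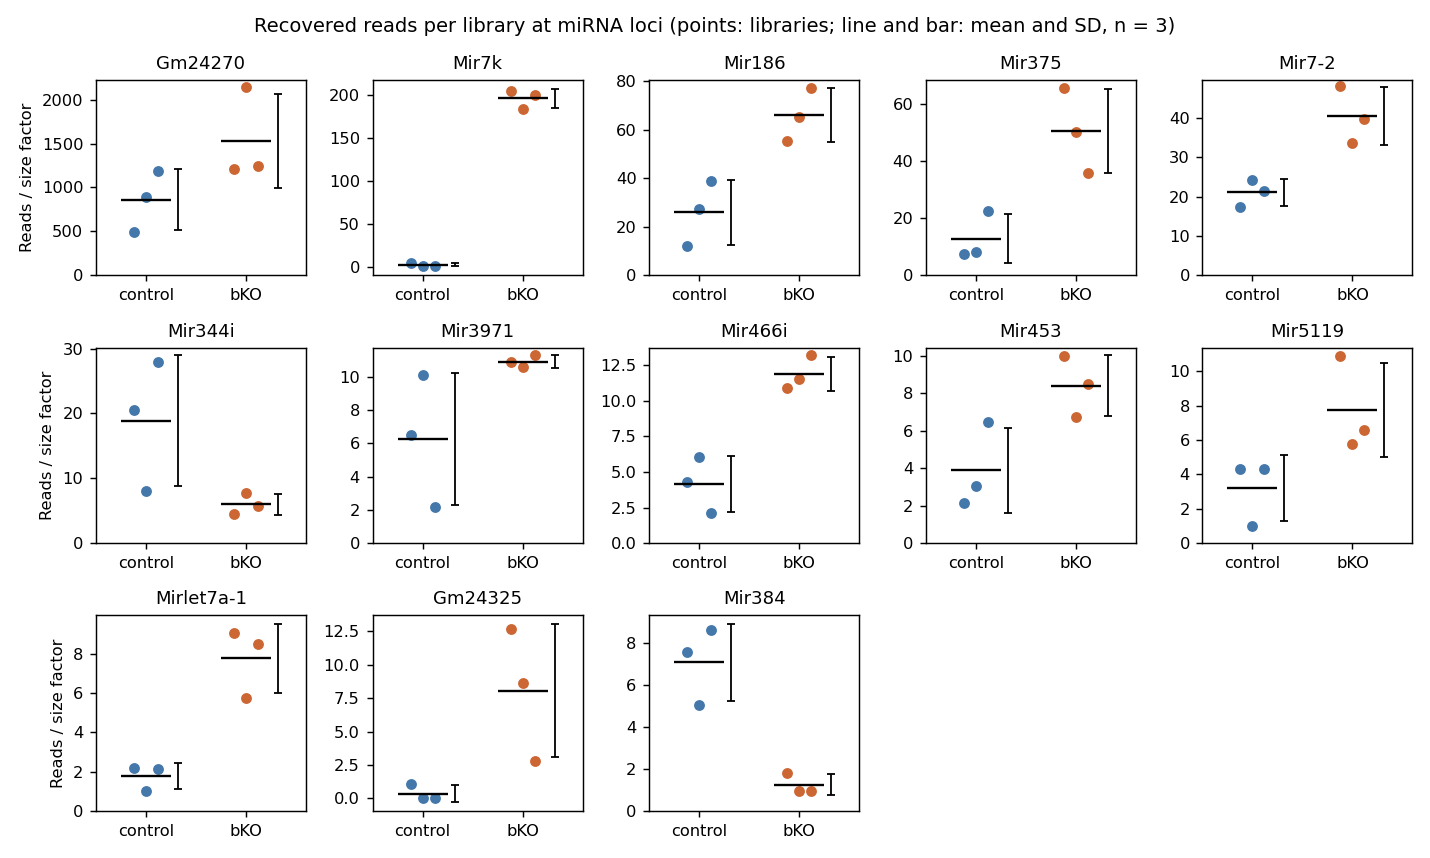
Recovered reads divided by the library's size factor are plotted for 13 miRNA loci with at least 20 reads that were called by limma, or that have at least 30 reads and groups that do not overlap. Each point is 1 library (blue control, orange bKO), the line is the group mean and the bar the SD over 3 libraries, and the panels have separate y axes. Mir344i and Mir384 are lower in bKO and the other 11 loci are higher.

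Mir186 lies in an intron of Zranb2 on chromosome 3 (157544279 to 157544349, plus strand), 615 bases from an exon of that gene. It held 11, 27 and 36 reads in control and 61, 68 and 82 in bKO, with every bKO library above every control library. It rose by 1.43 on the log2 scale (adjusted p = 0.0393 by limma, SE 0.38, voom adjusted p = 0.00197), 2.53-fold in reads per size factor (95% counting interval 1.93 to 3.34). The adjusted p ran from 0.00197 to 0.109 over 13 settings, and the call was lost with no filter on low values (0.0937), without control 2 (0.0747) and without bKO 1, bKO 2 or bKO 3 (0.0804, 0.0964 and 0.109). Zranb2, which encodes a zinc finger splicing factor, itself rose from 15.7 ± 0.89 to 19.2 ± 0.29 FPKM (log2 change 0.27, limma adjusted p = 0.011). The log2 ratio of Mir186 reads to Zranb2 reads was -7.13, -6.08 and -5.63 in control and -5.33, -5.09 and -4.89 in bKO. The locus thus gained reads relative to the whole host gene in each bKO library, by 1.18 on average.

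Ratios of single loci to their hosts were computed only for the named loci, chosen as given under data processing. Among the other named intronic loci with at least 30 reads, Mir3971, Mir5119, Mir466i and Mir1188 had a ratio that did not overlap between the groups. Mir3971, Mir5119 and Mir466i had been named for reads that did not overlap between the groups, so their ratios are descriptions only. Mir3971 held 6, 10 and 2 reads in control and 12, 11 and 12 in bKO (limma adjusted p = 0.17). Its host Slc43a2, an amino acid transporter gene, fell from 23.2 ± 1.1 to 17.4 ± 0.81 FPKM (log2 change -0.40, limma adjusted p = 0.0035), and the locus to host ratio was higher by 1.38 with no overlap. Mir5119, in the cyclin-dependent kinase gene Cdk12, held 4, 1 and 4 reads in control and 12, 6 and 7 in bKO (limma adjusted p = 0.0944). Cdk12 was at 4.58 ± 0.26 and 5.18 ± 0.14 FPKM (adjusted p = 0.12 by limma), and that ratio was higher by 1.09 with no overlap. Mir466i lies in Cdk13, a related kinase gene, on the opposite strand. It held 4, 6 and 2 reads in control and 12, 12 and 14 in bKO and rose by 1.199 (adjusted p = 0.0116 by limma, SE 0.22), with a voom adjusted p of 0.0744, the highest over its settings (lowest 0.00612). Cdk13 was at 6.67 ± 0.26 and 6.75 ± 0.21 FPKM (limma adjusted p = 0.87), and the ratio was higher by 1.46.

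At Mir5125, Mir344-2 and Mir26a-1 the ratio to the host differed less, and its groups overlapped. Mir5125, with 128, 166 and 109 reads in control and 207, 133 and 163 in bKO, lies 156 bases from an exon of Srrm2, which encodes a large splicing-related protein of nuclear speckles. Mir5125 changed by 0.14 (limma adjusted p = 0.59), Srrm2 by 0.11 (0.17), and the log2 ratio by 0.03. Mir344-2, in the noncoding gene A330076H08Rik, held 93, 62 and 113 reads in control and 109, 78 and 59 in bKO (limma adjusted p = 0.50), and the ratio to the host changed by -0.14. Mir26a-1, with 3, 3 and 4 against 5, 2 and 1 reads, lies in the phosphatase gene Ctdspl, which fell from 22.3 ± 0.21 to 17.0 ± 0.91 FPKM (log2 change -0.37, limma adjusted p = 0.003), and here the ratio changed by -0.25.

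**Figure D3:**
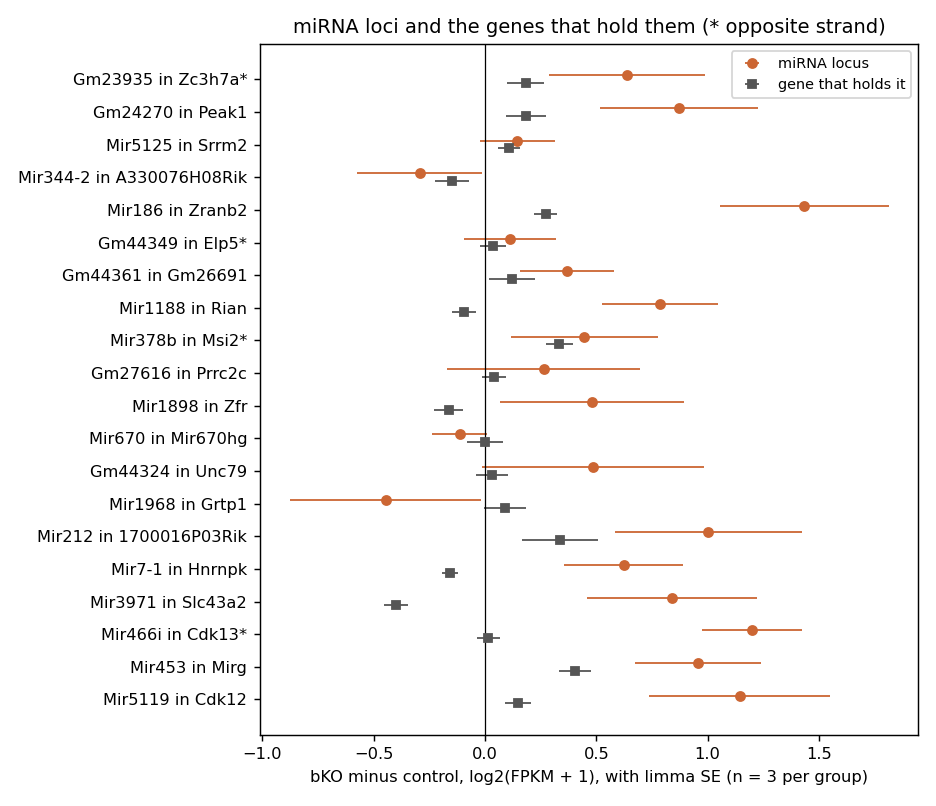
The difference bKO minus control in log2(FPKM + 1) is shown for 20 named miRNA loci with at least 30 reads (orange circles) and for the gene that holds each (grey squares). Bars are limma standard errors over 3 libraries per group, and opposite-strand hosts are starred. Of these 20, the ratio to the host did not overlap between the groups at 5, namely Mir186, Mir1188, Mir3971, Mir466i and Mir5119. These 5 lie right of their hosts, while Mir5125 and Mir344-2 lie near theirs.

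The other loci among the 20 with the most reads were not called by either fit, and their groups overlapped. Mir378b held 16, 10 and 15 reads in control and 27, 29 and 12 in bKO (log2 change 0.45, limma adjusted p = 0.39), while Msi2, the gene of an RNA-binding protein that holds it on the opposite strand, rose from 17.2 ± 0.64 to 21.9 ± 1.6 FPKM (log2 change 0.33, limma adjusted p = 0.0104). Mir1898, in an intron of the RNA-binding protein gene Zfr, held 4, 13 and 12 against 16, 20 and 9 reads. Mir670, in an exon of its noncoding host Mir670hg, held 10, 14 and 11 against 12, 10 and 14 reads, and the host was at 6.65 ± 0.77 and 6.62 ± 0.25 FPKM. Mir1968, in Grtp1, held 10, 11 and 16 against 14, 15 and 4 reads, and Mir8091, inside no other gene, 15, 12 and 9 against 17, 17 and 20. Among predicted loci, Gm44349 in Elp5 held 33, 32 and 22 against 49, 29 and 30 reads, Gm44361 in Gm26691 held 12, 22 and 18 against 24, 31 and 21, and Gm27616 in Prrc2c held 9, 7 and 16 against 8, 13 and 25. Gm44324 in Unc79 held 2, 14 and 13 against 10, 15 and 16 reads, and Gm27353 in Ccpg1 held 12, 4 and 10 against 18, 12 and 10. The limma adjusted p of these 10 loci lay between 0.143 and 0.741.

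Over all hosted loci, summed reads of 183 loci were set against those of their 170 distinct hosts. 34 of these loci, Gm23935 among them, lie on the strand opposite to the gene that holds them. The log2 ratio was -4.49, -3.46 and -3.45 in control and -3.51, -2.62 and -3.17 in bKO, which differ by 0.70 with overlapping groups (two-sided exact permutation test, p = 0.3, where 3 against 3 libraries allow no p below 0.1). Without control 1 the difference was 0.35 and without bKO 2 it was 0.46. Gm23935 and its look-alikes make up most of these reads. Without them the ratio of 181 loci was -8.85, -8.66 and -8.45 in control and -8.11, -8.31 and -8.36 in bKO, higher by 0.40 with no overlap (exact p = 0.1). Over the 149 loci with a same-strand host, which include Gm24270, the ratio was higher by 0.74 with no overlap (exact permutation p = 0.1). Loci that passed the rule through bKO alone belong to each of these sums. The hosts moved in both directions. Of 164 hosts tested, 17 rose and 20 fell (22.6%, beside 20.3% of all genes tested), and their median log2 change was -0.01.

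Of the 4 loci that fell, Mir384 had the most reads. It lies on the X chromosome (105344282 to 105344369, minus strand), carries the seed of the miR-30 family and held 7, 5 and 8 reads in control and 2, 1 and 1 in bKO. The groups did not overlap. It fell by 1.63 on the log2 scale (adjusted p = 0.0023 by limma, SE 0.19, voom adjusted p = 0.0427, range over 13 settings 0.00171 to 0.0427), to 0.177 of the control reads per size factor (95% counting interval 0.0441 to 0.530). Mir325, in the same cluster and on the same strand, went the other way. It held 0, 1 and 0 reads in control and 2, 2 and 4 in bKO and rose by 1.05 (limma adjusted p = 0.0281, voom adjusted p = 0.168), a call lost without control 1, control 3 or any 1 bKO library (range of adjusted p 0.0176 to 0.168). The noncoding gene 5330434G04Rik, which holds Mir325 and ends 3912 bases from Mir384, was at 1.69 ± 0.28 and 1.29 ± 0.19 FPKM (limma adjusted p = 0.20). Mir30c-1, with the same seed as Mir384, held 0, 0 and 2 reads in control and 1, 1 and 0 in bKO.

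The other loci that fell held fewer reads. Mir3569 and Mir3473e passed the rule through control alone. Mir3569 on chromosome 7 had 1, 4 and 6 reads in control and none in bKO (log2 change -2.09, limma adjusted p = 0.0158, voom adjusted p = 0.0287, range 0.00183 to 0.0535), at least 4.13-fold lower against a floor of 3 reads over the bKO group. Without control 2 or bKO 1 it was not called. Mir3473e, in an intron of the ribokinase gene Rbks, had 2, 4 and 4 reads in control and none in bKO. Its log2 change was -1.48 (limma adjusted p = 0.0023, voom adjusted p = 0.019, range 0.0015 to 0.019). Against the same floor it was 3.76-fold lower, with a counting interval of the ratio that reaches up to 0.396. Mir7041, 1 base from an exon of Lrig1, had 2, 2 and 2 reads in control and 0, 0 and 1 in bKO (log2 change -1.39, limma adjusted p = 0.0144, voom adjusted p = 0.159, range 0.00114 to 0.159), a ratio of 0.148 whose counting interval of 0.00322 to 1.22 includes no change, and it was not called without control 1. Mir344i, a member of the miR-344 group on chromosome 7, had 19, 8 and 26 reads in control and 5, 8 and 6 in bKO with no overlap after scaling. Its log2 change of -1.32 missed the threshold (adjusted p = 0.0579 by limma, SE 0.40, voom adjusted p = 0.0656, range 0.00607 to 0.159).

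Neighbouring loci often share a primary transcript, and 34 of the 225 loci lay in 8 clusters when loci within 50000 bases were chained. Both of the largest lie in the imprinted Dlk1 to Meg3 region of chromosome 12, whose noncoding transcripts carry many miRNAs. The 12 loci at 109712508 to 109747960 held 7, 6 and 34 reads in control and 39, 27 and 38 in bKO, and the groups overlapped through control 3. Mirg, a long noncoding gene that holds 5 of the 12 loci, rose from 3.12 ± 0.29 to 4.45 ± 0.22 FPKM (log2 change 0.40, limma adjusted p = 0.0107). In the cluster, Mir496a, which passed the rule through bKO alone, was called higher (0, 0 and 0 against 2, 1 and 4 reads, limma adjusted p = 0.0179, voom adjusted p = 0.115, range 0.00577 to 0.115, lost without control 1, control 2 or bKO 1). Mir453 had 2, 3 and 6 against 11, 7 and 9 reads (limma adjusted p = 0.0566).

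The 7 loci at 109580233 to 109618336, in and near the noncoding gene Rian, held 22, 34 and 43 reads in control and 46, 79 and 46 in bKO. After scaling the groups overlapped, and no locus among the 7 was called. Mir1188 held 124 of these 270 reads, with 10, 13 and 17 in control and 27, 38 and 19 in bKO (log2 change 0.79, limma adjusted p = 0.0764). Rian itself was at 37.0 ± 2.5 and 34.5 ± 0.93 FPKM (limma adjusted p = 0.27), and the log2 ratio of Mir1188 to Rian was higher by 0.94 with no overlap.

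Clusters elsewhere were smaller. The sum of Mir384 and Mir325, described above, was lower in bKO with no overlap (7, 6 and 8 against 4, 3 and 5 reads), and the clusters named next overlapped between the groups. 5 loci of the Mir344 region on chromosome 7 held 2, 8 and 21 reads in control and 35, 21 and 15 in bKO. Mir344-2 and Mir344i, described above, lie outside this cluster and had log2 changes of -0.29 and -1.32, neither of them called. Mir212 and Mir132, which share the seed AACAGUC and are known as activity-induced miRNAs, held 3, 10 and 15 reads together in control and 17, 20 and 26 in bKO. Mir212 alone had 3, 9 and 6 against 8, 14 and 25 reads (limma adjusted p = 0.14). Mir200b and Mir200a, of the epithelial miR-200 family, held 6, 0 and 0 reads in control and 14, 12 and 6 in bKO. Neither passed the test (limma adjusted p = 0.11 and 0.22). Mir200c, on chromosome 6, had 0, 2 and 1 against 4, 3 and 3 reads (limma adjusted p = 0.0666).

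A further set of loci was called higher from few or no control reads. Of these, Gm24325, Mir23a and Mir26a-2 reached the level in only 1 control library each, so they were kept through bKO. Gm24325 on chromosome 6, with 1, 0 and 0 reads in control and 14, 9 and 3 in bKO, rose by 2.39 (adjusted p = 0.0137 by limma, SE 0.46, voom adjusted p = 0.0147, range 0.00517 to 0.0486). The ratio of 23.1 has a counting interval of 3.79 to 946. Krba1, which ends 987 bases upstream on the same strand, was at 3.37 ± 0.24 and 3.18 ± 0.13 FPKM (limma adjusted p = 0.54). Mir23a had 0, 0 and 1 against 6, 3 and 4 reads (limma adjusted p = 0.0074, voom adjusted p = 0.0516, lowest of the settings 0.00389). Mir26a-2, in an exon of the phosphatase gene Ctdsp2, had 0, 1 and 0 against 3, 3 and 4 reads (limma adjusted p = 0.0071, voom adjusted p = 0.0921, lowest 0.00262), while Ctdsp2 was at 32.5 ± 3.5 and 33.5 ± 0.40 FPKM. Mir340 and Mir153 passed the rule through bKO alone. Mir340, in an intron of Rnf130, had no control read and 5, 5 and 1 bKO reads (limma adjusted p = 0.0237, voom adjusted p = 0.0518, range 0.00117 to 0.0801), at least 3.25-fold higher, and was not called without any 1 of the control libraries, bKO 1 or bKO 2. Mir153, in an intron of Ptprn2, a gene for a protein of insulin granules, had no control read and 1, 2 and 2 bKO reads (limma adjusted p = 0.0051, voom adjusted p = 0.179, lowest 0.00379).

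The remaining called loci were Mir6929 and the predicted genes Gm25070, Gm22029, Gm23654, Gm24975, Gm24053, Gm22926, Gm25036 and Gm23726, at 4 to 18 reads each. All of them were higher in bKO, and all but Gm22029 and Gm24975 passed the rule through bKO alone. Gm25070 had no control read and 3, 4 and 6 bKO reads (limma adjusted p = 0.0017, voom adjusted p = 0.0174, range 0.00087 to 0.0174), at least 3.85-fold higher. Gm22029 had 1, 0 and 0 against 8, 2 and 7 reads (limma adjusted p = 0.024, voom adjusted p = 0.04, range 0.00621 to 0.0783) and was not called without control 2, control 3, bKO 1 or bKO 3. Gm23654 had 1, 0 and 1 against 6, 4 and 3 reads and Gm24975 had 1, 1 and 0 against 2, 4 and 3. The other loci had no control read. Gm24053 had 3, 3 and 2 bKO reads, Gm22926 had 5, 1 and 1, Gm25036 had 2, 1 and 2, Gm23726 had 1, 2 and 1 and Mir6929 had 1, 1 and 2, and voom called none of these 7 loci. Without 1 library at a time, limma lost the call of Gm24975 and Gm22926 in 5 of 6 cases each, without any control library, bKO 2 or bKO 3. Gm22029 lies on the opposite strand inside Ccdc169, which had 14 reads in the control libraries together and 114 in the bKO libraries. The mean log2 ratio of locus to host reads differed by 0.01. It was -1.58, -3.91 and -2.81 in control and -2.54, -3.23 and -2.50 in bKO, with overlapping groups. The control values rest on 1 locus read and 14 host reads in all, too few to show whether the locus moved with its host. 34 of the 225 loci have a look-alike among the annotated transcripts, at least 90% identical over at least 90% of the locus. They include Gm25070 and Gm24975, with 197 and 198 such look-alikes, and Gm22029, Gm23726 and Gm25036, with 84, 178 and 21, so the source of their reads is uncertain. The same holds for Mir344i, 96.6% identical to Gm24923, and for Mir344-2 and Mir344, 98.7% identical to each other where they align.

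Gm23935, on chromosome 16 (11144125 to 11144181), held 175468 of the 190048 reads of the 225 loci (92.3%). Its reads were 12269, 27351 and 25378 in control and 27357, 48598 and 34515 in bKO. Control 1 was low and bKO 2 high, and after scaling the groups overlapped. The log2 change of 0.64 (SE 0.35) had a limma adjusted p of 0.249 and a voom adjusted p of 0.00932, and the range over 13 settings was 0.00932 to 0.843. It was called by voom alone. Gm24270, an identical copy in an intron of Peak1 on chromosome 9, held 455, 886 and 1102 reads in control and 1330, 2229 and 1314 in bKO. These did not overlap, and here too limma made no call (log2 change 0.87, SE 0.35, adjusted p = 0.132) where voom did (adjusted p = 0.00133, range 0.00133 to 0.304). Gm24187 and Gm25911, 98.2% and 96.5% identical to Gm23935, are also among the 225 loci. The look-alikes Gm24245 (100% identical) and Gm23388 (94.55% identical) are not. Together, Gm23935, Gm24270, Gm24187 and Gm25911 held 96.2% of the reads, so sums over all 225 loci rest mostly on these 4. Look-alikes were searched among annotated transcripts only, and whether these reads come from other RNA was not tested.

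As a share of all reads of a library, the 225 loci took 0.0780%, 0.160% and 0.163% in control and 0.171%, 0.305% and 0.215% in bKO. The means were 0.134% ± 0.048 and 0.230% ± 0.068 (SD, n = 3 per group), a ratio of 1.72 (two-sided exact permutation test, p = 0.1, the smallest possible). Without Gm23935 and its 3 look-alikes, the other 221 loci took 0.00448%, 0.00495% and 0.00590% in control and 0.00950%, 0.00842% and 0.00822% in bKO. Their means were 0.00511% ± 0.00073 and 0.00871% ± 0.00069, a ratio of 1.71 (exact p = 0.1). In both sets every bKO library was above every control library, though bKO 1 (0.171%) and control 3 (0.163%) were close for the full set. Loci that passed the rule through bKO alone belong to these sums, as does Mir7k, with 6 reads in control and 629 in bKO. The shares are of library totals, a scale on which the median log2 change of all genes tested moves up by 0.14.

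**Figure D4:**
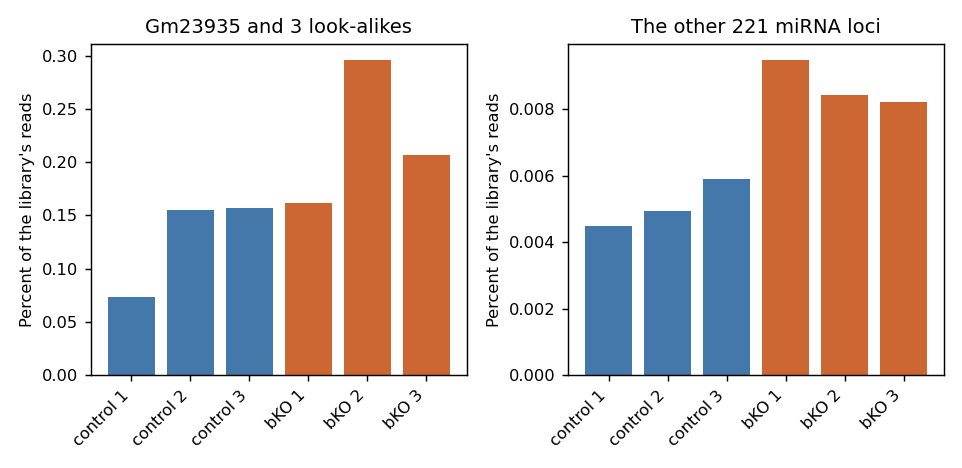
Bars give the percent of each library's reads at Gm23935 and its 3 look-alikes (left) and at the other 221 miRNA loci (right), for control (blue) and bKO (orange) libraries, with axes from 0. In the right panel the control bars end at 0.00590% or lower and the bKO bars start at 0.00822%.

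Of 65 miRNAs listed for their known roles in islets, 64 are in the table, 15 were among the 225 loci, 11 had reads but missed the rule and 38 had no read. Among the 15, Mir375, Mir7-2, Mir26a-2 and Mir153 were called higher, none was called lower, and 11 were not called, beside 8.96% of all genes tested called higher. Mir153 reached the level in no control library and Mir26a-2 in 1, so both entered the set through bKO, and the count of 4 is a description only. Mir148a, known for its abundance in endocrine and other epithelia, had 7, 2 and 8 reads in control and 5, 16 and 5 in bKO (limma adjusted p = 0.71). Mir15a, in the noncoding gene Dleu2, had 0, 0 and 1 against 1, 0 and 5 reads (limma adjusted p = 0.41). Mir34b, which missed the rule, held 1 read in control and 8 in bKO, all 8 of them in bKO 1.

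Genes that make and use miRNAs were read out of the same fit. Of 32 listed symbols, 29 were measured. Lin28b missed the filter, and no gene carried the symbols Zcchc11 and Zcchc6. Of the 29, 5 rose, 5 fell and 19 were not called (beside 8.96% higher and 11.4% lower among all genes tested). Their median log2 change was -0.03, beside -0.01 for all genes tested. The genes that rose most encode the GW182 proteins, which link Argonaute to mRNA silencing. Tnrc6a went from 14.1 ± 1.3 to 40.7 ± 0.55 FPKM (log2 change 1.47, limma adjusted p = 0.000109) and Tnrc6c from 8.79 ± 0.17 to 25.5 ± 0.77 FPKM (log2 change 1.43, limma adjusted p = 2.33e-05), while Tnrc6b rose by 0.40. Dgcr8 rose by 0.30 (limma adjusted p = 0.0283) and its partner Drosha was at 8.11 ± 0.47 and 8.13 ± 0.44 FPKM (adjusted p = 0.98 by limma). The helicase gene Ddx17, whose product assists Drosha, rose by 0.28 (limma adjusted p = 0.0103). Dicer1 fell by 0.21 (limma adjusted p = 0.0198), from 10.5 ± 0.13 to 8.88 ± 0.34 FPKM, and Xpo1, Ranbp3, Srsf3 and Hnrnpa2b1 fell by 0.27, 0.27, 0.20 and 0.13. Scaled by library totals, the median of all genes tested moves up by 0.14, and the change of Hnrnpa2b1 becomes 0.05, that of Dicer1 -0.05, of Srsf3 -0.03, of Xpo1 -0.11 and of Ranbp3 -0.11. The Argonaute genes Ago1, Ago2, Ago3 and Ago4 were not called by limma. Voom called Ago1 lower (voom adjusted p = 0.0087, limma adjusted p = 0.0739) and also Xpo5 (voom adjusted p = 0.0309, limma adjusted p = 0.082).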

How the data were processed

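Poly(A)-selected RNA of 3 control and 3 bKO islet samples was sequenced, and the labels call the replicates independent. The submitters' processing notes name HISAT2 2.0.5, featureCounts 1.5.0-p3 and CASAVA, and GRCm38 as the build. The sources used here give no strand setting, annotation release or treatment of multi-mapped reads.

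The deposited values are FPKM, which the authors scaled by median-of-ratios size factors (0.923 to 0.988 over the control libraries and 1.04 to 1.10 over the bKO libraries), as the values themselves show. Every value times gene length and 1 factor per library is a whole read within 0.01 (100% of values), so reads were recovered. Intervals (95%) cover counting error only. Floors (3 reads over a group) stand in for a group without reads and leave out the counting error of the other group.

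limma 3.58.1 (R 4.3.3) with a mean-variance trend was fitted to log2(FPKM + 1) of all genes that reach 0.5 FPKM in 3 or more libraries, with Benjamini-Hochberg adjustment at 0.05 and no covariate. The scale understates changes of low genes. Alternatives were voom on recovered reads, scaling by totals, other filters and pseudocounts, a replicate block and leaving out each library. Locus to host ratios used reads plus 0.5. Look-alikes among GENCODE vM21 transcripts were found with blastn 2.17.0, and other steps used scipy 1.17.1, pandas 2.3.3, numpy 2.4.6 and matplotlib 3.10.9 in Python 3.11.15.

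Named were the 20 loci with the most reads, every called locus, those of at least 30 reads with groups apart and those of the islet list, each with its host. A host is a gene whose span holds the locus, same strand and protein coding first. The loci and the lists were chosen with earlier results of these data known.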

Additional observations from a re-analysis of the deposited data

How the results depend on the processing

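Scaling by library totals changed the calls over all genes from 1408 higher and 1784 lower to 3684 and 737, and the replicate block gave 925 and 1152. Leaving out 1 library gave 852 to 1179 higher and 1037 to 1604 lower. Of the miRNA loci, 22 were called higher and 4 lower. Voom called 9 higher. Leaving out 1 library gave 19 to 25 higher and 4 to 8 lower, with 8 lower without control 3. Same-numbered libraries did not deviate together (correlations -0.073 to -0.014). The numbers thus gave no sign of a pairing, but with so few libraries this check cannot exclude one. With the replicate block, 25 miRNA loci were called higher and 4 lower, the read share ratio was 1.77 and the locus to host difference 0.70 (exact permutation p = 0.25 for both). The read share ratio ran from 1.43 to 1.95 without 1 library, and was 1.53 from reads per size factor (exact permutation p = 0.3). The sets without the Gm23935 look-alikes were chosen after seeing the data.

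Some changes on the log2 scale that were not called turned sign. Scaled by totals, Mir670 was at 0.041, Ncald at 0.16, Ankib1 at 0.090 and Ptprn2 at 0.088. Without 1 library, values ran from -0.096 to 0.23 for Gm44349, -0.14 to 0.64 for Gm27616, -0.14 to 0.80 for Gm44324, -0.75 to 0.077 for Mir1968, -0.16 to 0.58 for Mir148a, -0.17 to 0.45 for Mir30c-1, -0.011 to 0.037 for Cdk13, -0.061 to 0.031 for Ncald, -0.016 to 0.13 for Ctdsp2 and -0.025 to 0.044 for Lrig1. The cause was not tested. Of the 26 called loci, 6 passed in every setting, namely Mir7k, Mir7-2, Gm24325, Mir384, Gm25070 and Mir3473e. Of these, Gm25070 and Mir3473e passed the level rule through 1 group and had to differ. Gm24325 reached the level in 3 bKO libraries but only 1 control library, so it too was kept through bKO. Without each library in turn, 16 of the 26 kept the call. With 177 of 225 loci under 30 reads, depth limits what single loci can show.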
